A study of Mus musculus with 21 samples.

Results

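The 57 genes described here are the replication-dependent histone genes of the mouse, found by their symbols: every gene named Hist1h, Hist2h, Hist3h or Hist4h in both deposited expression tables, pseudogenes left out. They are 57 of the 22809 genes that both tables hold. The Hist1 cluster on chromosome 13 gave 48 of them, the Hist2 cluster on chromosome 3 gave 6, and Hist3 on chromosome 11 gave 2 and Hist4 on chromosome 6 gave 1. By product there were 6 genes for the linker histone H1, 13 for H2A, 16 for H2B, 10 for H3 and 12 for H4.

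RNA was sequenced from 21 sorted cell samples of the main olfactory epithelium, the sheet of the nose that holds the olfactory sensory neurons (OSNs). Every mouse carried a tetO transgene for HyperTRIBE, an RNA-editing enzyme domain, or for HyperTRIBE fused to the RNA-binding protein Mex3a, together with the red marker mCherry, and the mCherry-negative cells of a mouse served as its internal control. HT mice had the genotype gg8tTA, OMPtTA and tetO-HyperTRIBE_mCherry, and gave 3 OSN and 3 negative (Neg) samples. MexHT mice had gg8tTA, OMPtTA and tetO-Mex3a_HyperTRIBE_mCherry, and gave 6 OSN and 5 Neg samples. The gg8 MexHT mice had gg8tTA and tetO-Mex3a_HyperTRIBE_mCherry without OMPtTA, and gave 2 OSN and 2 Neg samples. The gg8 driver is active in immature OSNs and the OMP driver in mature OSNs, so the sorted cells of HT and MexHT mice are labelled immature and mature OSNs and those of the gg8 mice immature OSNs. All mice therefore carried a driver and an editing construct; no mouse without a transgene was analysed here, and the age and sex of the mice are not given in the labels. Samples with the same number in an OSN and a Neg group came from the same mouse, replicates are separate mice per the labels, and p-values measure the spread between these samples. The names of the gg8 libraries hold a date that differs from the date in all the other names, so the driver and that date cannot be told apart. The deposited name of the gg8 values also holds the word Clonetech, which the name of the other values does not. That difference cannot be told apart from the driver either.

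Replication-dependent histone genes are transcribed when DNA is copied, and their proteins wrap the new DNA into nucleosomes. H2A, H2B, H3 and H4 form the nucleosome core and H1 binds the linker DNA. Their mRNAs usually end in a short stem loop in place of a poly(A) tail, which the stem-loop binding protein Slbp recognises, and are degraded when DNA synthesis stops. In the olfactory epithelium the dividing cells are basal stem and progenitor cells, and OSNs have left the cell cycle. Hist2h2be encodes an H2B variant known from olfactory neurons, where it is expressed outside of S phase. The libraries were made from total RNA, so transcripts without a poly(A) tail could be captured.

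The stem loop is shown first, because it is the sequence the family shares that the gene names did not use. The letters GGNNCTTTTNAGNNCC, 16 bases on the transcript strand, were searched in the first 150 annotated bases after the stop codon (GENCODE transcripts, GRCm38). They stood in 37 of the 57 histone genes, and in 47 of 22500 coding genes in all, or 0.209%. Of the 20 histone genes without them, 16 have fewer than 60 annotated bases after the stop. All 37 matches had 6 of 6 paired stem positions and began 22 to 55 bases after the stop, with a median of 32. The letters searched already fix the pairs of GG with CC and of CT with AG, so only the N positions of the stem could have failed to pair. The 6 forms found are printed with the 4 loop bases in capitals.
Form in 20 genes, among them Hist1h1c and Hist3h2ba: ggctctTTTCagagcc
Form in 6 genes, among them Hist1h3c: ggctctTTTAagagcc
Form in 6 genes, among them Hist1h4d: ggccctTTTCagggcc
Form in 2 genes: ggtcctTTTCaggacc
Form in 2 genes: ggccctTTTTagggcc
Form in 1 gene, Hist2h2ac: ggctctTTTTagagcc
Hist2h2be, Hist1h2bc, Hist1h3g and Hist1h4a have at least 60 annotated bases after the stop and did not hold these letters; no match says only that the letters are not in this window.

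The stretches before 3 genes are shown because these genes mark the range of the results: Hist1h3c had the largest fall in OSNs, Hist2h2ac shares its upstream stretch with Hist2h2be, and Hist3h2ba did not fall. Each is 250 bases long, ends just before the RefSeq start (GRCm38.p6) and is given on the strand of the gene. Capitals mark TATAAA (the TATA box), the CCAAT box or the octamer (ATTTGCAT), on either strand.
Hist1h3c, chr13:23745522-23745771, minus strand: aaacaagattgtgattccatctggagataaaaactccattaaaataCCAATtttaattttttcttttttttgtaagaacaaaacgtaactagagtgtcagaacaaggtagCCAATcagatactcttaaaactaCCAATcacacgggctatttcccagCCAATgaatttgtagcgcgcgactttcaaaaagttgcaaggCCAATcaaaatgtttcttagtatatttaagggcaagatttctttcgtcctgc
Hist2h2ac, chr3:96220881-96221130, minus strand: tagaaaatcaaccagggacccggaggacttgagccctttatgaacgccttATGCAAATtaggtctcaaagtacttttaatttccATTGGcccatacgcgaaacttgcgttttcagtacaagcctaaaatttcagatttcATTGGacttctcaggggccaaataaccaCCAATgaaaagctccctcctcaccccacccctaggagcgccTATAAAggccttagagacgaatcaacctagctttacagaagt
Hist3h2ba, chr11:58948661-58948910, plus strand: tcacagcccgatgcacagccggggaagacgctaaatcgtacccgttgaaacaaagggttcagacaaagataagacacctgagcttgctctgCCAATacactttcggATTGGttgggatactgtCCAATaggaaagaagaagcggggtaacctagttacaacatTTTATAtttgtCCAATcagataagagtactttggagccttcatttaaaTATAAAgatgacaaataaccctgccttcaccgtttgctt
In 300-base windows from 250 bases before to 50 after the start, 52 histone genes were matched in RefSeq. TATAAA stood in 32 of the 52 and in 13.6% of all 32851 promoters, and CCAAT in 44 of the 52 and in 37.4% of all. The octamer was found in 13 of the 52, against 1.74% of all promoters: in 6 of 13 H2A and 7 of 14 H2B promoters, and in none of the H1, H3 or H4 promoters matched. Windows of neighbouring H2A and H2B genes on opposite strands can overlap, and in places the same octamer counted for both genes. Hist2h2be was not among the 52 genes matched. CCAAT was present in every H1, H2A, H2B and H3 promoter matched and in 3 of 11 H4 promoters. A match of letters is a description and not a bound site.

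The values are TPM, transcript abundances per length with each library scaled to a total of 1e+06. Reads behind the values, recovered from the steps between TPM values, came to 7425287 to 15215941 per library. Mex3a, the gene in the fusion construct, was at 23.96, 32.1 and 61.5 TPM in HT OSN and at 328 to 1271 TPM in MexHT OSN. The summed mature OSN markers were 9716 to 14949 TPM in HT OSN, 2430 to 7054 in MexHT OSN and 415 to 1043 in gg8 MexHT OSN. In the Neg fractions they were still 5767 to 11940, 678 to 7707 and 8413 to 14709 TPM, so Neg fractions also held OSN transcripts. Markers of granulocytes and their precursors summed to 6476 to 15499 TPM in HT Neg, 12509 to 16856 in MexHT Neg and 2888 to 3763 in gg8 MexHT Neg, and to between 73.1 and 465 TPM in every OSN library. In MexHT OSN replicate 5 the 20 markers of G2 and M phase summed to 952 TPM, against 163 to 298 in the other 5 libraries of its group.

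Transcripts of the histone genes were a larger part of the Neg than of the OSN libraries. The 57 genes summed to 6546, 6618 and 6734 TPM in HT OSN and to 17366, 15453 and 26395 TPM in HT Neg. In MexHT mice the lowest, median and highest OSN sums were 5648, 8788 and 12447 TPM, and the Neg libraries had 19973, 23285, 34639, 38234 and 37533 TPM. The gg8 MexHT mice had 4216 and 6222 TPM in OSN and 25180 and 20623 TPM in Neg. No OSN library of a group reached the lowest Neg library of the same mice. As ratios of geometric means over libraries, Neg stood 2.90-fold above OSN in HT mice, 3.41-fold in MexHT mice and 4.45-fold in gg8 MexHT mice. Histone transcripts made up 0.655% to 0.673% of HT OSN, 0.565% to 1.24% of MexHT OSN, 1.55% to 2.64% of HT Neg and 1.997% to 3.82% of MexHT Neg libraries. In such pooled cells, fewer dividing cells and less histone RNA per cell cannot be told apart.

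**Figure D1:**
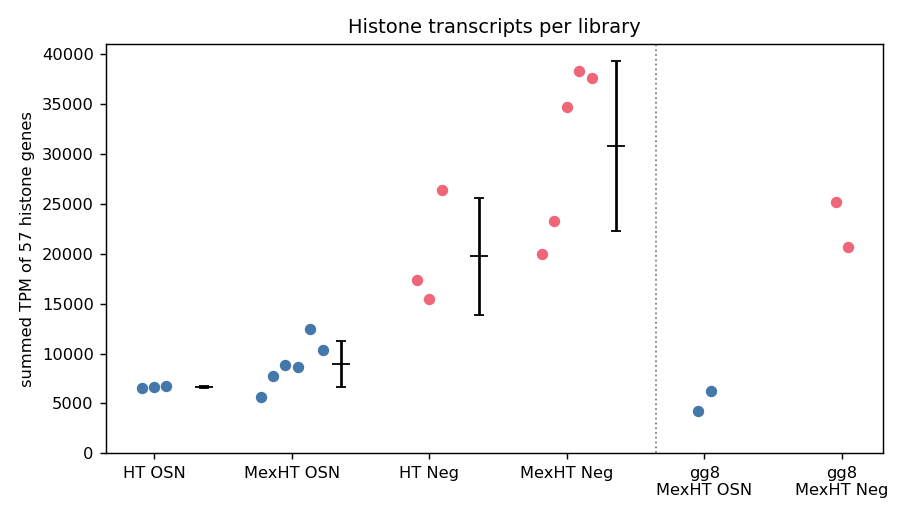
Summed TPM of the 57 histone genes (vertical axis) in each of the 21 libraries, 1 point per library, with libraries grouped on the horizontal axis; black bars beside the groups of 3 or more are the mean and SD, and the dotted line separates the gg8 mice, whose table was scaled on its own. OSN libraries lie between 4216 and 12447 TPM and Neg libraries between 15453 and 38234 TPM.

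Gene by gene, nearly the whole family was lower in the OSN than in the Neg fraction of the same genotype. Of the 57 genes, 56 passed the filter of a mean of at least 1 TPM; Hist1h2ba, a testis H2B gene, had at most 2 reads in any library. In MexHT mice 53 of 56 fell in OSN and 1 rose, with 27.6% of all 16522 genes tested lower and 35.8% higher (limma, adjusted p under 0.05). The median log2 difference of the histone genes was -2.22, and that of all genes was 0.16. In HT mice 49 fell and none rose, against 9.11% lower and 2.18% higher over all genes, with a histone median of -2.07. In gg8 MexHT mice 45 fell and none rose, against 7.2% lower and 1.12% higher over all genes, with a histone median of -2.56. In each comparison the share of histone genes that fell was well above that of all genes.

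Without any model, 50 of 56 genes in MexHT mice had every OSN library below every Neg library, where 19.6% of all genes did. This count was 52 of 56 in HT mice, against 18% of all genes, and 54 of 56 in gg8 MexHT mice, against 30.2%. The opposite order, every OSN library above every Neg library, was seen for no histone gene in MexHT mice (23.4% of all genes) or HT mice (22.9%) and for 1, Hist3h2ba, in gg8 MexHT mice (33.5%). Within single mice, 53 genes were lower in OSN in each of 5 MexHT mice, 55 in each of 3 HT mice and 54 in each of 2 gg8 MexHT mice. The share of all genes was not counted in this way. It is at least 19.6% in MexHT, 18% in HT and 30.2% in gg8 MexHT mice, the shares without overlap. The 53 genes called lower in MexHT mice were called without each single library in turn, MexHT OSN replicate 5, with its high G2 and M phase markers, included. In HT mice the count ran from 35, without HT OSN replicate 2, to 52, without HT Neg replicate 2. In gg8 MexHT mice, with 2 mice, no gene of any kind was called once Neg replicate 1, Neg replicate 2 or OSN replicate 2 was left out.

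**Figure D2:**
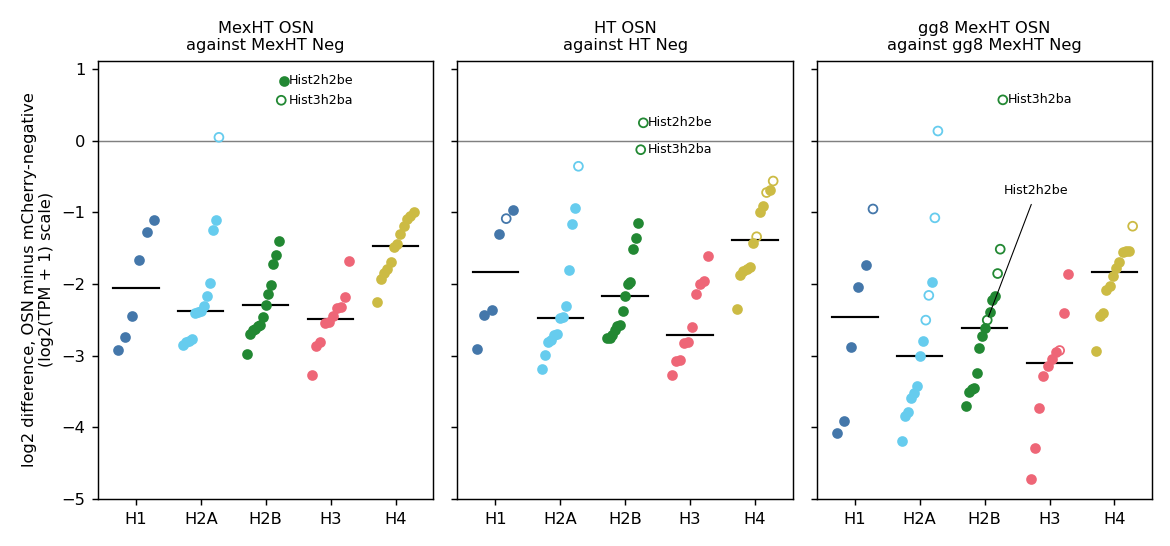
Log2 difference of each histone gene between OSN and Neg fractions (vertical axis, log2(TPM + 1) scale) by histone class (horizontal axis), 1 panel per genotype; filled points had an adjusted p under 0.05, open points did not, and bars are class medians. Most points lie below 0, the H3 medians (-2.49, -2.71 and -3.10) lie lowest and the H4 medians (-1.47, -1.38 and -1.83) highest.

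The size of the difference was not even over the classes. H3 had the largest ratio of Neg to OSN sums (geometric means over libraries), at 5.74 in MexHT, 5.70 in HT and 8.50 in gg8 MexHT mice. H4 had the smallest, at 2.51, 2.10 and 3.16. H2A gave 4.04, 3.97 and 5.24, H1 gave 3.73, 2.89 and 5.12, and H2B gave 3.11, 2.75 and 4.14. In these sums abundant genes weigh most. By the median log2 difference over genes, H2B stood further below 0 than H1 in each genotype (-2.30 and -2.06 in MexHT, -2.16 and -1.83 in HT, -2.61 and -2.47 in gg8 MexHT mice), while H3 stayed lowest and H4 highest. No class was tested against another.

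Within a library, the make-up of the histone pool does not depend on how the library was scaled. H3 took 5.55% ± 0.25 (SD, n = 3) of the histone sum in HT OSN and 10.9% ± 0.68 (n = 3) in HT Neg. It took 7.52% ± 1.57 (n = 6) in MexHT OSN and 12.5% ± 0.85 (n = 5) in MexHT Neg. The ranges did not overlap between the fractions, at 5.28% to 5.76% against 10.4% to 11.7% in HT and 5.90% to 10.5% against 11.3% to 13.4% in MexHT mice. The share of H4 went the other way, with 33.1% ± 1.05 in HT OSN, 24.1% ± 0.96 in HT Neg, 31.2% ± 3.38 in MexHT OSN and 22.9% ± 1.61 in MexHT Neg. The H4 shares of MexHT OSN and MexHT Neg overlapped, since MexHT OSN replicate 5 had 25.1%.

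**Figure D3:**
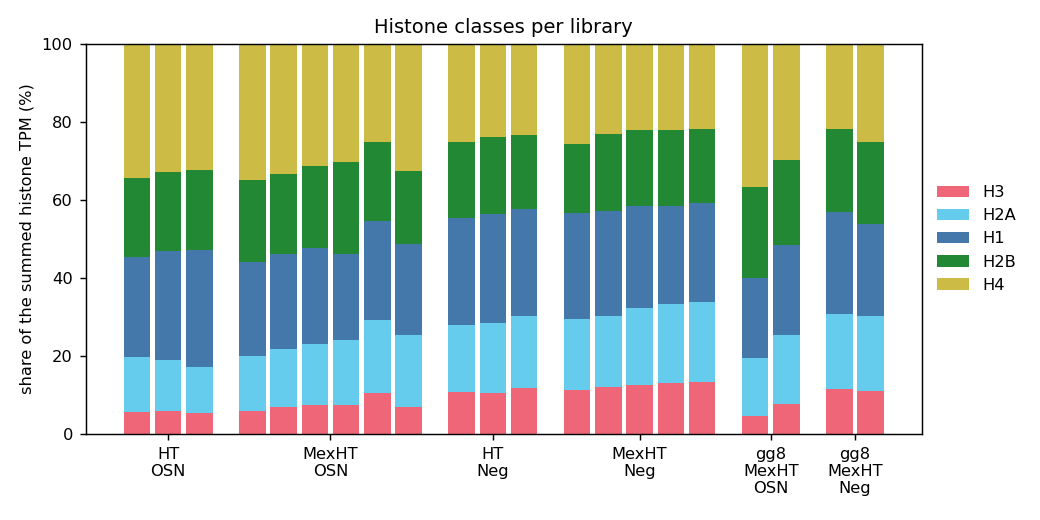
Share of the summed histone TPM taken by each histone class (vertical axis, percent, stacked to 100) in each of the 21 libraries, grouped on the horizontal axis. H3 takes 4.60% to 10.5% in OSN and 10.4% to 13.4% in Neg libraries, and H4 takes 25.1% to 36.6% in OSN and 21.7% to 25.6% in Neg libraries.

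The core histone H3 genes gave the widest gaps between fractions. Hist1h3c (chr13:23744973-23745602, minus strand) had 227, 167 and 359 TPM in HT Neg and 30.5, 21.9 and 20.1 TPM in HT OSN. In MexHT mice it had 267, 326, 460.5, 633 and 578 TPM in Neg, and 16.4 at the lowest, 45.9 at the median and 113 at the highest in OSN. With the gg8 driver alone it had 292 and 251 TPM in Neg and 4.12 and 19.7 in OSN. The fractions did not overlap in any genotype. Hist1h3c fell in each, with log2 differences of -3.27 (SE 0.29, adjusted p 0.00222) in HT, -3.27 (SE 0.39, adjusted p 1.46e-05) in MexHT and -4.72 (SE 0.64, adjusted p 0.0205) in gg8 MexHT mice, all on the log2(TPM + 1) scale. Hist1h3b, another H3 gene, had 414, 380 and 638 TPM in HT Neg and 54.3, 55.5 and 53.6 in HT OSN, and fell by 3.07 there and by 2.86 in MexHT mice. All 10 H3 genes fell in HT and in MexHT mice, and 9 of 10 in gg8 MexHT mice.

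Among the linker histones, Hist1h1b, a gene tied to dividing cells, differed most. It had 494, 463 and 843 TPM in HT Neg and 64.8, 86.3 and 78.4 in HT OSN. Hist1h1c, known to be expressed also in cells that do not divide, had 1799, 1548 and 2342 TPM in HT Neg and 681, 718 and 885 in HT OSN. Neither gene overlapped between the fractions. Hist1h1b fell by 2.91 (adjusted p 0.00222) and Hist1h1c by 1.30 (adjusted p 0.0122) in HT mice, and by 2.92 and 1.67 in MexHT mice. The Hist1h1c call in HT mice was lost in part of the fits with 1 library left out, with adjusted p up to 0.066. All 6 H1 genes fell in MexHT mice and 5 of 6 in each other genotype, the exception being Hist1h1t, the testis H1 gene, which stayed under 8 TPM throughout.

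As a class, H4 had the largest summed TPM in the OSN fractions and the smallest gap to Neg. Hist1h4d (chr13:23581598-23582735, plus strand) had 721, 700 and 712 TPM in HT OSN and 1284, 1106 and 1664 in HT Neg. In MexHT mice it had 655, 847 and 1165 TPM as lowest, median and highest in OSN, and 1389, 1490, 1974, 2139 and 2067 in Neg. The fractions again did not overlap. Hist1h4d fell by 0.91 (adjusted p 0.0268) in HT and by 1.06 (adjusted p 0.000183) in MexHT mice, and Hist1h4c by 0.68 (adjusted p 0.0329) and 0.99 (adjusted p 0.000687). In HT mice both calls were lost in part of the fits without 1 library, with adjusted p up to 0.109 and 0.133. All 12 H4 genes fell in MexHT mice, 9 in HT mice and 11 in gg8 MexHT mice.

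H2A and H2B genes lay between these classes. Hist1h2ak, an H2A gene, had 456, 420 and 992 TPM in HT Neg and 119, 120 and 108 in HT OSN, and fell by 2.31 (adjusted p 0.00693). Hist1h2bb had 404, 364 and 552 TPM in HT Neg and 72.3, 79.0 and 56.2 in HT OSN, and fell by 2.64 (adjusted p 0.00217). Neither overlapped. Hist2h2bb, an H2B gene, fell by 1.51 (adjusted p 0.00866) in HT and by 1.72 (adjusted p 4.67e-06) in MexHT mice. None of its 50-base windows in the GENCODE transcripts is unique, so reads there cannot be assigned to it with certainty. The model behind its TPM has 493 bases, while GENCODE gives it no base after the stop. Counted bases outside the GENCODE transcript were thus not searched. Over the family the median share of unique GENCODE windows was 53.0%, and 25 genes were under 50%. Values of single near-identical copies are uncertain.

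Hist2h2be, the H2B variant of olfactory neurons, was the single histone gene that rose in MexHT OSN. This gene (chr3:96221119-96223738, plus strand) is long for the family, with 2618 bases, and all of its 50-base windows are unique. In MexHT Neg it had 202, 308, 218, 212 and 160 TPM, and in MexHT OSN 273 at the lowest, 392 at the median and 584 at the highest. The groups overlapped, since MexHT Neg replicate 2 was above 1 OSN library, but in each of the 5 mice OSN was above Neg. It rose by 0.84 (SE 0.19, adjusted p 0.00232), and the difference stayed between 0.70 and 0.97 in the alternatives run. In HT mice it had 428, 446 and 426 TPM in OSN and 359, 451 and 299 in Neg, which overlapped. That difference of 0.25 (SE 0.16, adjusted p 0.307) did not pass the test, and the difference between the genotypes, 0.59, did not either (adjusted p 0.219).

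In gg8 MexHT mice, where the sorted cells are labelled immature OSNs, Hist2h2be stood the other way. It had 215 and 45.1 TPM in OSN and 517 and 618 TPM in Neg, and the groups did not overlap. The log2 difference was -2.51 (SE 0.67), with an adjusted p of 0.0672, and 0.0325 with the mouse as a block. It was -3.62 (adjusted p 0.0107) without OSN replicate 1 and -1.39 (adjusted p 0.101) without OSN replicate 2. The mature OSN markers moved with it: 9 of 13 fell in gg8 MexHT OSN, with sums of 415 to 1043 TPM in OSN and 8413 to 14709 in Neg. Of 11 immature OSN markers 1 rose and 0 fell, with 6 differences above 0 and 5 below and a median of 0.03. Their sums were 6391 to 7669 TPM in OSN and 4666 to 6002 in Neg. Neurogenic progenitor markers summed to 206 to 998 TPM in OSN and 284 to 712 in Neg, which overlapped. Over the 17 libraries of the other mice, Hist2h2be had a Pearson correlation of 0.77 (Spearman 0.76) with the summed mature OSN markers, 0.66 (0.75) over the 9 OSN and 0.85 (0.90) over the 8 Neg libraries. These libraries share mice and fractions, and the part of the mature OSN share in the result was not tested.

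Hist2h2ac, an H2A gene, starts 239 bases from Hist2h2be on the other strand, and the 250 bases printed for it reach the start of Hist2h2be. It had 471, 424 and 751 TPM in HT Neg and 270, 232 and 209 in HT OSN. In MexHT mice it had 471, 536, 949, 1061 and 1066 TPM in Neg, and 204, 324 and 549 as lowest, median and highest in OSN. The HT groups did not overlap and the MexHT groups did. Hist2h2ac fell by 1.17 (adjusted p 0.0246) in HT, by 1.25 (adjusted p 0.00223) in MexHT and by 1.98 (adjusted p 0.0204) in gg8 MexHT mice. In HT mice this call was lost in part of the fits without 1 library, with adjusted p up to 0.0904. The family has 10 such head-to-head pairs. In MexHT mice the log2 differences of Hist2h2ac and Hist2h2be lay 2.08 apart, and the members of each of the other 9 pairs at most 0.66 apart. In HT mice they lay 1.42 apart, and the other pairs at most 0.709. With the gg8 driver alone they lay 0.53 apart, and the other pairs up to 1.565. These gaps carry no test.

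The H2B gene Hist3h2ba (chr11:58948920-58949533, plus strand) was the other exception. It had 88.4, 112 and 93.6 TPM in HT Neg and 83.4, 96.1 and 89.1 in HT OSN, which overlapped. In MexHT mice it had 67.1, 127, 181, 187 and 142 TPM in Neg and 113, 195 and 290 as lowest, median and highest in OSN, which also overlapped. The gg8 MexHT mice had 279 and 231 TPM in Neg and 367 and 389 in OSN, with no overlap. It was higher in OSN in all 5 MexHT mice and both gg8 MexHT mice, and lower in all 3 HT mice. The differences of 0.57 in MexHT (SE 0.29, adjusted p 0.102), -0.13 in HT (adjusted p 0.496) and 0.57 in gg8 MexHT mice (adjusted p 0.192) did not pass the test. With the mouse as a block, the MexHT difference had an adjusted p of 0.00872; without MexHT OSN replicate 1 it also passed (0.0344). Its neighbour Hist3h2a, an H2A gene, fell by 1.11 (adjusted p 0.00278) in MexHT and by 0.95 (adjusted p 0.0099) in HT mice, where it was lost in part of the fits without 1 library (adjusted p up to 0.0511).

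Hist2h2ab, an H2A gene next to Hist2h2ac, was the third that did not fall in MexHT OSN. It had 82.8, 64.3 and 74.3 TPM in HT OSN and 102, 82.2 and 101 in HT Neg. In MexHT mice it had 81.3, 106 and 178 TPM as lowest, median and highest in OSN, and 130, 87.7, 111, 116 and 88.4 in Neg. The MexHT groups overlapped over nearly their whole range. The difference was 0.05 (adjusted p 0.834) in MexHT and -0.36 (adjusted p 0.127) in HT mice. With the mouse as a block the HT difference passed the test (adjusted p 0.0333), and the sign in MexHT mice turned with the scaling.

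**Figure D4:**
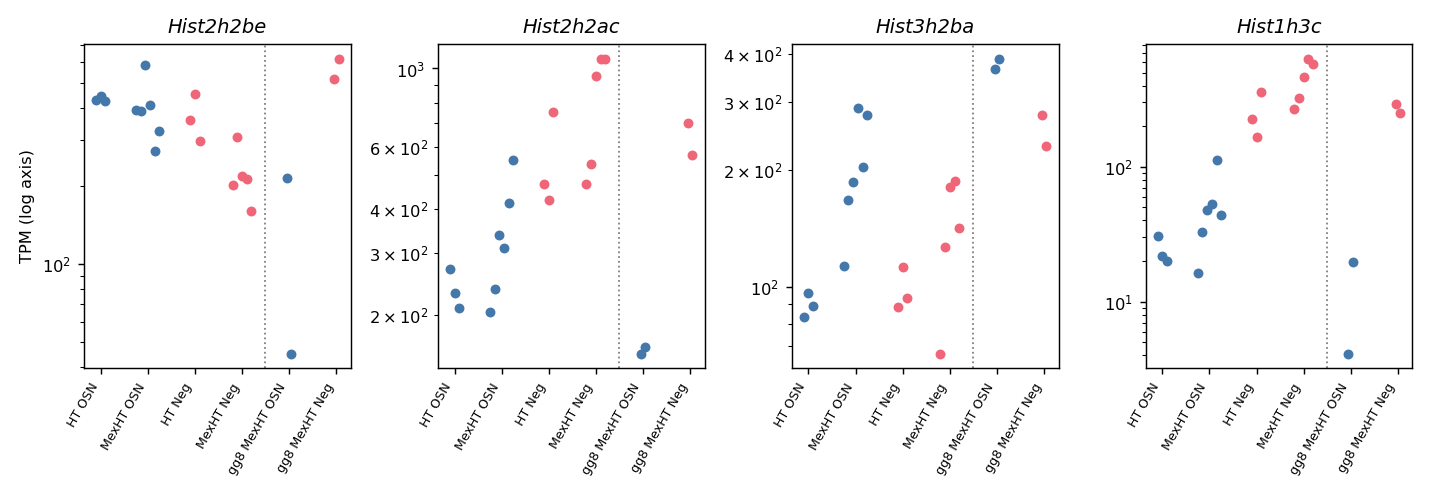
TPM (vertical axis, log scale) of Hist2h2be, Hist2h2ac, Hist3h2ba and Hist1h3c in every library, 1 panel per gene, libraries grouped on the horizontal axis with the gg8 mice right of the dotted line. Hist2h2be lies at 45.1 and 215 TPM in gg8 MexHT OSN and at 273 to 584 TPM in MexHT OSN, while Hist1h3c is below 114 TPM in every OSN library.

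Cell cycle genes were also lower in OSN of HT and MexHT mice. Of 29 S phase genes, 28 fell in MexHT OSN, 17 in HT OSN and 3 in gg8 MexHT OSN, and of 20 genes of G2 and M phase all 20 fell in MexHT and HT OSN and 6 in gg8 MexHT OSN. Over all genes 27.6%, 9.11% and 7.2% fell, so the S phase count with the gg8 driver alone is near that of all genes. Over the 17 libraries of the gg8tTA; OMPtTA mice, 45 of the 56 histone genes had a correlation above 0.9 with the summed S phase genes. The 3 below 0.5 were Hist2h2be at -0.80, Hist3h2ba at 0.26 and Hist2h2ab at 0.32. Within the 9 OSN libraries these 3 had -0.57, 0.84 and 0.64, and within the 8 Neg libraries -0.66, 0.82 and 0.09. Hist3h2ba thus went with the S phase genes inside each fraction. The median of the 56 genes was 0.93 over all 17 libraries, 0.81 within OSN and 0.95 within Neg. Some genes above 0.5 over all 17 libraries were near or below 0 within OSN. The libraries share mice and fractions, so these are descriptions. Per unit of S phase TPM, the histone sum was 15.2 in HT OSN, 16.8 in HT Neg, 11.2 in MexHT OSN, 14.1 in MexHT Neg, 5.32 in gg8 MexHT OSN and 15.99 in gg8 MexHT Neg. The granulocyte markers, whose precursors divide, fell in OSN as well, with 12 of 12 in MexHT and HT and 11 of 12 in gg8 MexHT mice; their part in the histone result was not tested.

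Genes that make and handle histone mRNA and protein did not follow as a group. Of 22 genes for histone transcription and 3′ end processing, 8 rose and 6 fell in MexHT OSN against Neg, 3 fell in HT and none was called in gg8 MexHT mice, where 7 had an unadjusted p under 0.05, as did 31% of all genes. The MexHT shares are near the 35.8% higher and 27.6% lower of all genes. Slbp, the stem-loop binding protein, fell by 0.68 in HT OSN (adjusted p 0.0344), and Casp8ap2, a factor of histone gene transcription, rose by 0.55 in MexHT OSN (adjusted p 0.0128). Of 12 histone chaperones, 4 rose and 6 fell in MexHT mice and 3 fell in HT mice. The chaperone Asf1b, which hands H3 and H4 to new DNA, fell by 2.20 (adjusted p 2.76e-05) and 1.99 (adjusted p 0.0271). Of 11 replacement histones, which are made outside S phase, 2 rose and 5 fell in MexHT and 2 fell in HT mice. H2afz, the gene of H2A.Z, fell by 0.77 and 0.78, and H3f3b, a gene of H3.3, by 0.31 in MexHT mice. The macroH2A gene H2afy2 rose by 1.31 in MexHT OSN (adjusted p 9.01e-07), and its difference exceeded that in HT mice by 1.02 (adjusted p 0.00207).

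Where the annotated end lies was also set beside the changes. AATAAA, the poly(A) signal, stood in the last 50 annotated bases of a transcript of 11 of the 56 tested genes, Hist2h2be and Hist3h2ba among them. Their median log2 difference between OSN and Neg was -1.20 in MexHT, -1.09 in HT and -1.77 in gg8 MexHT mice, against -2.33, -2.36 and -2.89 for the 45 others. Genes with and without the stem loop letters had medians of -2.18 and -2.32 in MexHT, -1.995 and -2.43 in HT and -2.45 and -2.795 in gg8 MexHT mice. These are medians over genes that were not tested as groups. Of the 20 genes without the letters, 16 have fewer than 60 annotated bases after the stop. Where few or none are annotated, the last 50 bases are mostly coding and could hardly hold a poly(A) signal. Both splits therefore cannot tell the end of the mRNA from how far it is annotated. The models behind the TPM values can also differ: Hist1h1c has 725 bases there, with 880 annotated after its stop alone.

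The last comparisons set the Mex3a fusion against HyperTRIBE alone. In OSN, 13 of 56 histone genes rose in MexHT and none fell, beside 19.9% of all 16067 genes that rose and 16.8% that fell. The share that rose is near that of all genes and by itself does not set the family apart. The median log2 difference was 0.68, against 0.03 for all genes. Of the 56 differences 54 were above 0, as were 8307 of the 16067 over all genes. In 8 genes every MexHT OSN library was above every HT OSN library, against 21.5% of all genes. The summed histone TPM of 8968 ± 2302 (SD, n = 6) in MexHT OSN and 6633 ± 94.8 (n = 3) in HT OSN overlapped.

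The 13 genes that rose were 5 of H2A, 1 of H2B, 3 of H3 and 4 of H4, and no H1 gene. Hist3h2ba had 83.4, 96.1 and 89.1 TPM in HT OSN and at least 113 TPM in each MexHT OSN library, and rose by 1.13 (SE 0.26, adjusted p 0.0073). Hist1h3h, an H3 gene, had 5.19, 8.74 and 5.87 TPM in HT OSN and 10.5, 19.1 and 32.8 as lowest, median and highest in MexHT OSN. Hist1h2ad, an H2A gene, had 4.21, 4.25 and 3.34 TPM in HT OSN and 4.52, 12.1 and 21.3 in MexHT OSN. None of these 3 genes overlapped between the groups. Hist1h3h rose by 1.36 (SE 0.33, adjusted p 0.00997) and Hist1h2ad by 1.32 (SE 0.36, adjusted p 0.0171). Only 6.08% and 32.9% of their 50-base windows in the GENCODE transcripts are unique. The H4 genes Hist1h4a and Hist1h4f rose by 0.80 (adjusted p 0.0147) and 0.78 (adjusted p 0.0155).

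The count of 13 changed with single libraries. Without MexHT OSN replicate 1, 31 histone genes rose; without HT OSN replicate 1, 2 or 3, the counts were 3, 5 and 6. Xist, the RNA of the inactive X chromosome of females, was at 0.126, 0.140 and 60.3 TPM over the HT OSN libraries in ascending order and at 58.4 to 140 TPM in MexHT OSN. With the level of Xist as a covariate no histone gene was called, and over all genes 204 rose. Other lists moved in the same comparison: 17 of 29 S phase genes and 8 of 11 immature OSN markers rose, and 11 of 13 mature OSN markers and 6 of 6 macrophage markers fell. The macrophage markers summed to 766 to 3541 TPM in HT OSN and 158 to 329 in MexHT OSN. The part of these differences in the histone result was not tested. Slbp rose by 0.88 (adjusted p 0.000526) and the histone chaperone Nasp by 1.14 (adjusted p 0.000205) in MexHT OSN. In all, 9 of 22 processing genes rose and 2 fell, and 5 of 12 chaperones and 5 of 11 replacement histones rose.

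**Figure D5:**
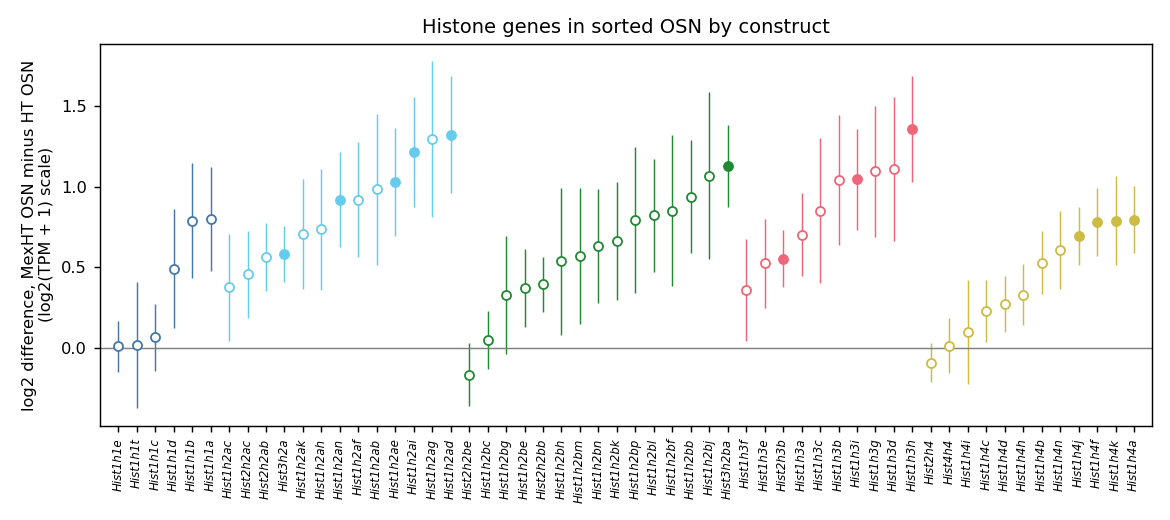
Log2 difference of each of the 56 histone genes between MexHT OSN and HT OSN (vertical axis, log2(TPM + 1) scale, error bars are SE), with genes along the horizontal axis; filled points had an adjusted p under 0.05. Of the 56 differences 54 lie above 0 and 13 are filled, the highest at 1.36.

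In the Neg fractions no gene of any kind was called between MexHT and HT mice by limma, 0% of 16860. The same held for the histone genes with voom on the recovered reads, and 27 of the 56 had an unadjusted p under 0.05, as did 20.6% of all genes. The median difference of the histone genes was 0.72, and 55 of 56 lay above 0, as did 8231 of 16860 over all genes. The histone sums of 30733 ± 8500 (SD, n = 5) in MexHT Neg and 19738 ± 5844 (n = 3) in HT Neg overlapped. In 2 genes every MexHT Neg library was above every HT Neg library, against 3.64% of all genes, and in none below, against 5.07%. Hist2h2be was the 1 histone gene below 0, at -0.76 (SE 0.21, adjusted p 0.218). All 13 mature OSN markers were below 0 as well, with a median of -1.585. The part of the mature OSN share in the Hist2h2be value was not tested.

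Whether the gap between OSN and Neg differed by construct was tested directly, with all 4 groups of the gg8tTA; OMPtTA mice, which the comparisons above share. None of the 56 histone genes was called, against 7.05% of all 16785 genes higher and 5.37% lower, none had an unadjusted p under 0.05, and voom on the recovered reads called none. Their median was -0.03, with 21 differences above 0 and 35 below, while 9513 of all 16785 genes were above 0. The largest among the histone genes was that of Hist3h2ba, 0.69 (SE 0.43, adjusted p 0.307), which passed with the mouse as a block (adjusted p 0.041).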

How the data were processed

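Total RNA of 21 sorted samples (10 ng per library, per the labels' protocols) was sequenced after cell sorting. The authors deposited TPM values per gene in 2 tables, 17 libraries with both drivers and 4 libraries with gg8tTA alone. The submitters' processing notes name FastQC, cutadapt, STAR, bedtools and the build mm10; the gene counter, its strand setting and the annotation are not given in the sources used here. The 2 tables were scaled apart, so tests stayed within a table.

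Python 3.11.15 and R 4.3.3 with limma 3.58.1 were used. Genes that averaged 1 TPM or more over the libraries of a fit were tested two-sided on log2(TPM + 1) by limma with a mean trend, with Benjamini-Hochberg adjustment over all of them and a threshold of 0.05; fold changes of low genes are understated on this scale. The 6 comparisons share libraries: each OSN or Neg group of HT and MexHT mice enters 3 of them. Because the values of a gene are whole multiples of 1 read, reads could be recovered for 23613 of 23614 genes of the larger table and 22777 of 22945 of the other, within a tolerance of 0.02 to 0.05 reads, and voom on these reads was an alternative. The recovery and limma steps were tested on simulated data. For limma all genes had the same simulated spread, and changed genes were drawn from the better-covered ones. Of 100 genes changed by a log2 of 1, 48% were called in MexHT OSN against HT OSN and 36% in MexHT Neg against HT Neg. In OSN against Neg, 79% were called in MexHT, 30% in HT and 9% in gg8 MexHT mice. Of 100 genes changed by 2, 95% or more were called in each comparison. Unchanged genes called numbered 8 in each comparison between constructs. In OSN against Neg they numbered 15 in MexHT, 17 in HT and 38 in gg8 MexHT mice. In each comparison false calls made up more than 0.05 of all calls, most of all in gg8 MexHT mice.

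Same-numbered OSN and Neg samples are from 1 mouse per the labels; their deviations from the group means correlated at 0.174 to 0.475 in HT, -0.109 to 0.421 in MexHT and 0.0178 in gg8 MexHT mice. The mouse as a block was an alternative. All 33 replicate pairs differed beyond counting noise. Symbols that look like dates (27 per table) were left out.

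The histone genes, marker lists and tests were chosen with earlier results of these data known. Named were Hist2h2be, the 3 genes of highest mean TPM of each class, and per comparison and direction up to 5 called genes with the largest change, at least 5 TPM and no overlap, with up to 3 per direction of each other list; Hist2h2ab, Hist3h2a, Hist1h1t, Hist1h2bc and Hist1h2ba were named after their values were seen. Of the marker lists not described elsewhere, in MexHT OSN against Neg 4 of 6 neurogenic progenitor, 1 of 6 sustentacular, 5 of 5 horizontal basal cell, 4 of 4 tested erythroid and 6 of 6 lymphoid markers fell. Sequences and coordinates are from GENCODE and RefSeq tables of GRCm38. SEs are from the limma fits and SDs from the values of the libraries, so both include the spread between samples.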

Additional observations from a re-analysis of the deposited data

Results flagged for a closer look

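Dixon's criterion was applied to 78 combinations of a group of 4 or more libraries with a named gene or a sum of genes. In 4 of them, all single genes, 1 library lay far from the others of its group. Chance alone gives about 1 in 20, and the sums include the same genes. MexHT OSN replicate 5 was high for Hist1h1b (304.8 TPM, the others 65.5 to 144), Hist1h3g (72.0 TPM, the others 14.1 to 25.0) and Hist1h2ah (20.4 TPM, the others 6.37 to 10.6). This is the library whose G2 and M phase markers summed to 952 TPM; the relation was not tested. MexHT OSN replicate 6 was high for Hist2h2ab (178 TPM, the others 81.3 to 115).

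For Hist2h2be the log2 difference between OSN and Neg was above 0 in each of 5 MexHT mice (mean 0.89) and below 0 in both gg8 MexHT mice (mean -2.51), a gap of 3.39 that was not tested, since the tables were scaled apart. Hist3h2ba was higher in OSN in each of 5 MexHT mice (mean 0.47) and lower in each of 3 HT mice (mean -0.13), a gap of 0.59; tested as an interaction without the pairing it was 0.69 (limma, adjusted p 0.307). Against the 2 gg8 MexHT mice (mean 0.57) the HT mice differed by -0.70, which was not tested.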

How the results depend on the processing

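The 53 histone genes lower in MexHT OSN than Neg were called in every alternative run (another pseudocount, no filter, median-of-ratios scaling, voom, the block, each library left out). The count lower in HT OSN lay between 35 and 54. That in gg8 MexHT OSN was 45, and 35 to 48 in the alternatives, but ran from 0 to 48 with 1 library left out. For MexHT OSN against HT OSN the 13 genes became 8 with voom and 0 with Xist as a covariate, and 3 to 31 with 1 library left out. The 1 gene higher in MexHT OSN than Neg became 1 to 2 with 1 library left out. The cause of these moves was not tested.

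With the mouse as a replicate block, 54 genes were lower in HT and 48 in gg8 MexHT OSN, 2 were higher in MexHT OSN than Neg (Hist2h2be and Hist3h2ba), and 1, Hist3h2ba, was called in the interaction. Between constructs same-numbered mice share only a number, with correlations of -0.228 to 0.132 in OSN and 0.231 to 0.418 in Neg; with that block 5 genes rose in OSN and 0 in Neg, Hist1h3h and Hist1h2ad were lost, and Hist2h2be turned from -0.17 to 0.046. Pairing changed no other count by over 1.5 times.

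Signs that turned were those of small differences: Hist2h2ab in MexHT OSN against Neg was -0.090 with median-of-ratios scaling, -0.069 with voom, -0.093 with the replicate block, and -0.093 to 0.131 with 1 library left out. With the gg8 driver alone it was -0.015 with voom, and -0.194 to 0.466 with 1 library left out. Hist3h2ba in MexHT Neg against HT Neg was -0.012 with Xist as a covariate. Leaving out 1 of 2 gg8 libraries assumes that the lone one varies like the others. Summed TPM differences, added after seeing the data, kept their direction.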
